A study of Mus musculus with 27 samples.

Results

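The transcripts of 6 genes best known from killer lymphocytes were followed through 27 RNA-seq libraries of mouse bone marrow-derived macrophage cultures: Gzmb, Gzmc, Il2rb, Ifng, Lck and Txk. They are 6 of the 19069 genes named in the deposited table and were chosen by their measured expression in LPS-treated cultures that had not been irradiated. Their levels in that contrast are therefore given as a description, with no test. Results of all 27 libraries were known when they were chosen, a lower Gzmb level after irradiation among them, so low values in the other libraries may have entered the choice, and no test below is independent evidence. Bone marrow cells from C57BL/6 mice received 5 Gy of protons at the ultra-high dose rate called FLASH, 5 Gy from a standard proton beam, or no radiation. All groups were then grown with 10 ng/ml CSF-1 (the macrophage growth factor) for 7 days, and afterwards kept for 2 days in control medium (M0), 100 ng/ml LPS (M1) or 20 ng/ml IL-4 (M2). Each of the 9 groups had 3 libraries. The age and sex of the mice are not given in the sources used here, nor whether the replicates were separate animals, so p-values measure only the spread between these libraries. Radiation came before the 7 days of differentiation, so every irradiated culture grew from irradiated precursors.

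Natural killer (NK) cells and cytotoxic T cells kill by releasing granzymes, serine proteases stored in granules, into a target cell. IL-2 and IL-15 drive the growth of these lymphocytes through a receptor whose beta chain is encoded by Il2rb, and interferon-gamma (Ifng) is the cytokine with which they activate macrophages. Lck, a Src-family kinase, and Txk, a Tec-family kinase, act close to antigen receptors in T cells. LPS is a bacterial cell wall product that macrophages sense through TLR4.

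Promoter windows of Gzmb and Gzmc are printed because these granzyme genes had the highest folds and are direct neighbours on mouse chromosome 14, in the row Gzme, Gzmd, Gzmg, Gzmn, Gzmf, Gzmc, Gzmb of the RefSeq order. Each window runs from 250 bases before to 50 bases after the RefSeq start on the minus strand of GRCm38.p6, 5′ to 3′, at chr14:56262285-56262584 for Gzmb and chr14:56234608-56234907 for Gzmc. Capitals mark every match, on either strand, to the letters of a cyclic AMP response element (CRE, TGACGTCA, and its last 7 letters GACGTCA), an AP-1 site (TGANTCA), a Runx site (TGTGGT), a GAS site (TTCNNNGAA) or an NF-kappaB site. Where matches touch or overlap, their capitals run together.
Gzmb: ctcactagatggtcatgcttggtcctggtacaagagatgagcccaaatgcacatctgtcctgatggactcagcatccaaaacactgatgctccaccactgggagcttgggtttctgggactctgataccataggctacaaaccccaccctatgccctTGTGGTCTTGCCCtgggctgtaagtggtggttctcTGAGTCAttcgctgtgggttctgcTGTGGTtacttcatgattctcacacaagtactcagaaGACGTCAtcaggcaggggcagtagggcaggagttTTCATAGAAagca
Gzmc: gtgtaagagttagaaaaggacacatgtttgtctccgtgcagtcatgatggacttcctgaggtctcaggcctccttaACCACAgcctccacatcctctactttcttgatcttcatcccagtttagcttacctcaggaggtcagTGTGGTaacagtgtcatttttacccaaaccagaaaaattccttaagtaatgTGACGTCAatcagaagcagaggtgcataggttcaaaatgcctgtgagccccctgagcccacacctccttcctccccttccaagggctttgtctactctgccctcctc

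The Gzmc window held the whole CRE 57 bases before its start, and the Gzmb window held GACGTCA at position 4 after its start. Of the 32851 promoter windows in the RefSeq table, 1.79% held the whole CRE and 3.205% the 7 letters, which the whole CRE contains. Both windows held Runx letters, Gzmc 174 and 108 bases and Gzmb 93 and 34 bases before the start, against 16.76% of all windows. Gzmb also held AP-1 letters 58 bases before its start, found in 7.808% of windows, and GAS letters at position 38 after it, found in 8.298%. Its NF-kappaB letters, 90 bases before the start and overlapping a Runx match, occur in 50.79% of windows. The table gave windows for 5 of the 6 genes, Ifng with 1 and Lck and Txk with 2 each. The Ifng window held GAS letters 249 bases before its start, and 1 window each of Lck and Txk held Runx letters. ISRE letters, found in 3.443% of all windows, were in none of the 7. These matches are descriptions of the letters only.

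There were 5 libraries, each numbered replicate 1, that stood at odds with their labels. In the sample titles all libraries of one replicate number share a code, so these 5 share one, and the labels do not say what the code marks. Every library was scored for its LPS response and for its IL-4 response, each over 200 genes outside the 6, with the non-irradiated M0 mean set to 0 and the non-irradiated M1 or M2 mean set to 1. The libraries labelled FLASH M2 and standard M2 replicate 1 had LPS scores of 0.882 and 0.885. The libraries labelled FLASH M1 and standard M1 replicate 1 had LPS scores of only -0.021 and 0.025, the latter with an IL-4 score of 0.834. The library labelled FLASH M0 replicate 1 had an IL-4 score of 0.769. The other 4 irradiated M1 libraries had LPS scores of 0.776 to 0.892, and the 3 non-irradiated M1 libraries of 0.961 to 1.055. The 200 genes were picked for their large differences between these non-irradiated libraries and non-irradiated M0. Scores near 1 in non-irradiated M1 are thus built in, and nothing is read from the gap to the irradiated libraries. Labels were kept as given, and the tests of the 6 and the counts of called genes that rest on these libraries are given with and without them. The p53 target Cdkn1a separated irradiated libraries (477.8 to 858 CPM) from non-irradiated ones (167.8 to 352.8 CPM) without overlap. Libraries held between 20680000 and 25840000 assigned reads, and 1 read was worth 0.0373 to 0.0488 CPM (read counts scaled to the size of the library).

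Under LPS without irradiation, all 6 transcripts stood above every one of the other 24 libraries in every one of the 3 replicates. Of the 13297 genes tested, 5.06% had that pattern, and nothing is read from it for the 6, which were chosen for their levels in these libraries. In the 18 irradiated libraries the highest value of any of the 6 was 1.49 CPM (Il2rb), whatever the label or the LPS score.

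**Figure D1:**
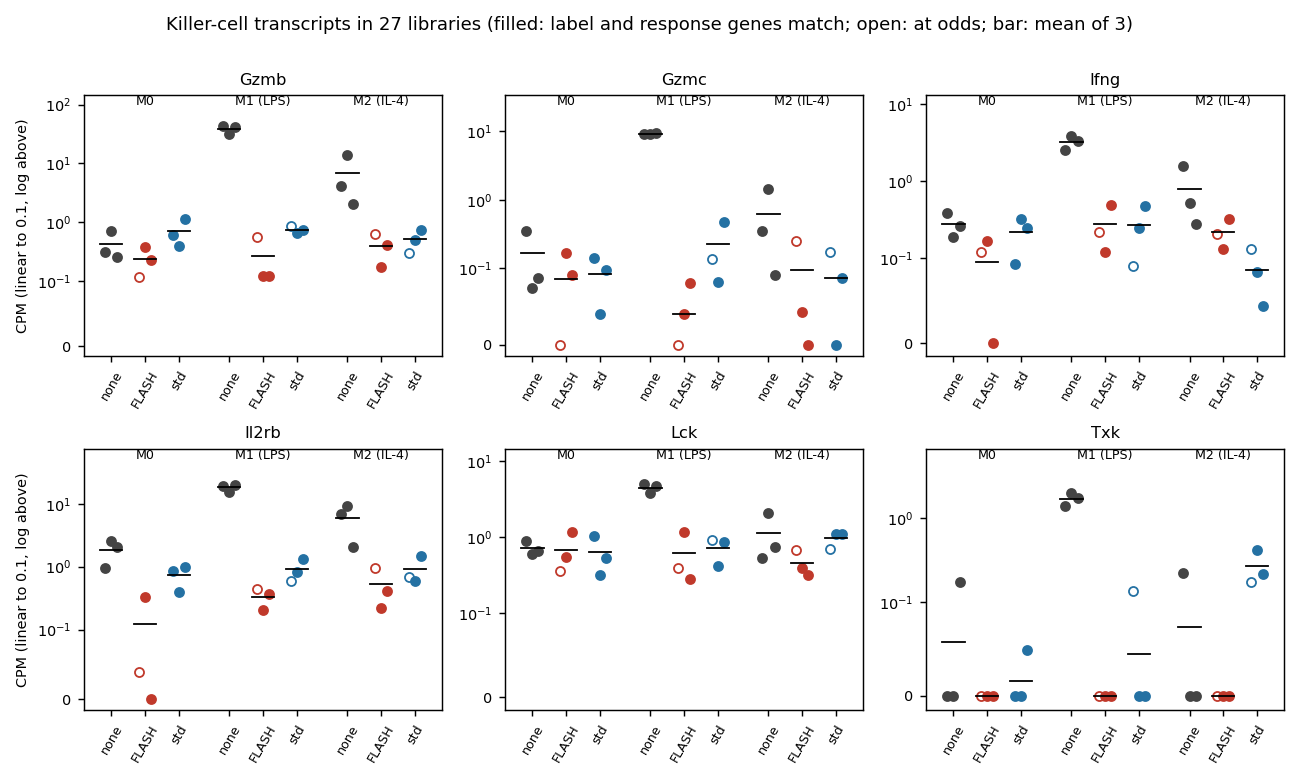
CPM of the 6 transcripts in each library, by treatment (M0, M1 with LPS, M2 with IL-4) and radiation (none, FLASH, standard "std"); the axis is linear below 0.1 CPM and logarithmic above, bars are means of 3 libraries, and open points are the 5 libraries at odds with their labels. The 3 non-irradiated M1 libraries are the highest in every panel, and Gzmb and Il2rb are also raised in the 3 non-irradiated M2 libraries.

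Gzmb, the granzyme that cuts caspases and their substrates in target cells, reached 42.7, 31.1 and 42.3 CPM in the non-irradiated M1 libraries. The non-irradiated M0 libraries held 0.307, 0.708 and 0.261 CPM. The M1 values did not come near the M0 values, and the ratio of the means was 91.0 (38.7 ± 6.59 against 0.425 ± 0.246 CPM, SD, n = 3 each). The difference of 5.42 on the log2(CPM + 0.5) scale ranked 13th of 13297 genes. After irradiation, Gzmb under LPS was 0.564, 0.121 and 0.121 CPM in the FLASH libraries and 0.856, 0.661 and 0.725 CPM in the standard libraries. These 6 libraries together held 71 Gzmb reads, against 2592 in the 3 non-irradiated ones, and their mean of 0.508 CPM lay near that of the non-irradiated M0 libraries. The mean without irradiation was 76.2 times the mean of the irradiated M1 libraries, and 95.1 times that of the 4 not at odds with their labels. In bulk RNA, fewer cells of a type and less RNA per cell cannot be told apart.

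Gzmc, a granzyme of activated killer cells in rodents, was measured at 9.17, 8.995 and 9.26 CPM in the non-irradiated M1 libraries, the tightest replicates of the 6 transcripts. The non-irradiated M0 libraries held 0.345, 0.0745 and 0.0870 CPM, which are 13 reads in all. The ratio of the means was 54.1 (9.14 ± 0.134 against 0.169 ± 0.153 CPM, SD, n = 3 each), a log2 difference of 3.87. In irradiated cultures under LPS, Gzmc was 0, 0.0404 and 0.0807 CPM after FLASH and 0.135, 0.0826 and 0.469 CPM after standard irradiation. Without irradiation the M1 mean was 67.9 times that of the irradiated M1 libraries. With Il12rb1 and Ly6a, Gzmc was 1 of only 3 genes whose lowest non-irradiated M1 library held at least 1 CPM and more than 4 times the highest of the other 24 libraries. Of the other cluster genes in the table, Gzme averaged 0.230 CPM in non-irradiated M0 and 0.402 CPM in M1, and Gzmd was listed at 0 in M0 and averaged 0.516 CPM in M1. Of the 31-base words in the Gzmc transcript, 14.81% also occur in Gzmb, Gzmd, Gzme, Gzmf or Gzmg, so reads could be split among these genes, whereas 1.351% of those in Gzmb are shared, with Gzmc.

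Il2rb, the signalling chain shared by the IL-2 and IL-15 receptors, was 19.0, 15.4 and 19.9 CPM in non-irradiated M1 and 0.959, 2.53 and 2.09 CPM in non-irradiated M0. It had the highest M0 level of the 6, and the ratio of the means was 9.74 (18.1 ± 2.39 against 1.86 ± 0.812 CPM, SD, n = 3 each), a log2 difference of 3.04. FLASH M1 libraries held 0.434, 0.202 and 0.363 CPM and standard M1 libraries 0.586, 0.826 and 1.32 CPM. All 6 lay below every non-irradiated M1 library, whose mean was 29.1 times theirs. In control medium the Il2rb means were 1.86 CPM without irradiation and 0.431 CPM in the 6 irradiated M0 libraries, a ratio of 4.31. That was the highest of the 6 genes when Txk, with 1 read in irradiated M0, is left out. The Il2rb ranges (0.959 to 2.53 and 0 to 0.975 CPM) overlapped.

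Ifng, the gene of interferon-gamma, was 2.56, 3.82 and 3.33 CPM in non-irradiated M1 against 0.384, 0.186 and 0.261 CPM in non-irradiated M0. The ratio of the means was 11.7 (3.24 ± 0.634 against 0.277 ± 0.0996 CPM, SD, n = 3 each), a log2 difference of 2.26. Irradiated M1 libraries held 0.217, 0.121 and 0.484 CPM after FLASH and 0.0901, 0.248 and 0.469 CPM after standard irradiation. The groups did not overlap, and the ratio was 11.9. Il22, a cytokine gene beside Ifng, averaged 0.0256 CPM in non-irradiated M0 and 0.203 CPM in M1 and did not reach the filter. Of the 31-base words in Ifng transcripts, 22.6% also occur in the overlapping gene model Gm49751.

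Lck was 4.98, 3.78 and 4.67 CPM in non-irradiated M1 and 0.882, 0.596 and 0.652 CPM in non-irradiated M0, a ratio of means of 6.30 (4.48 ± 0.626 against 0.710 ± 0.152 CPM, SD, n = 3 each) and a log2 difference of 2.04. Elsewhere it was low but always present, with 0.282 to 1.17 CPM over the 18 irradiated libraries and none at 0. The non-irradiated M1 mean was 6.70 times that of the irradiated M1 libraries. Txk was the rarest, with 1.40, 1.99 and 1.71 CPM in non-irradiated M1 (1.70 ± 0.299, SD, n = 3), which are 115 reads. It was listed at 0 in 2 of 3 non-irradiated M0 libraries, in all 9 FLASH libraries and in 4 of 9 standard libraries. Against FLASH M1, with no read in 3 libraries, it was at least 41.1-fold higher without irradiation (a floor of 3 reads over the group, covering counting error only). Tec, the kinase gene next to Txk, moved the other way by its means, from 63.6 ± 11.4 CPM in non-irradiated M0 to 37.7 ± 5.02 CPM in M1 (log2 difference -0.74, adjusted p = 0.13 in limma; -0.74 and 0.000267 without the 5 libraries at odds).

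The order of the 9 groups was alike in the 6 transcripts only at the top. Non-irradiated M1 came first in all 6 and did not overlap the next group. Non-irradiated M2 came second in 5, with standard M2 second for Txk. The M2 libraries without irradiation overlapped the next group in 4 of these 5, all but Gzmb. From there down, each group overlapped the next in every transcript. For the filter of 1 CPM in 3 libraries, 3 of the 6 depended on the group where they are high: Txk reached 1 CPM in only the 3 non-irradiated M1 libraries, and Gzmc and Ifng in those and 1 non-irradiated M2 library. Gzmb reached it in 7, Lck in 9 and Il2rb in 10 libraries.

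The LPS response of the 6 after irradiation was fitted with that of all genes. None of the 6 was called in the mean of the FLASH and standard arms, where 1.11% of all genes were called (adjusted p below 0.05). No irradiated library reached 1 CPM of Txk, Gzmc or Ifng, which passed the filter only through non-irradiated libraries. The fit could therefore show little for these 3. Nothing is read from the count of the 6, here or in the later fits among irradiated libraries. The M1 and M0 means of the 6 irradiated libraries each were 0.508 and 0.475 CPM for Gzmb, 0.135 and 0.0893 CPM for Gzmc, and 0.622 and 0.431 CPM for Il2rb. The differences on the log2(CPM + 0.5) scale were 0.05 for Gzmb (95% interval -0.57 to 0.68), 0.08 for Gzmc (-0.39 to 0.54), 0.32 for Il2rb (-0.29 to 0.92), 0.22 for Ifng (-0.21 to 0.66), 0.01 for Lck (-0.50 to 0.53) and 0.04 for Txk (-0.26 to 0.34). The scale compresses changes below 0.5 CPM, and the difference between the 2 responses was not tested, because the non-irradiated one chose the genes.

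The labels of 2 of these 6 M1 libraries were among those at odds, and 1 of the 6 M0 libraries was too. Without the 5 libraries, 37.2% of 13181 genes were called for the LPS response after irradiation, with 18.5% called higher, and again none of the 6. The estimates were then -0.17 for Gzmb, 0.09 for Gzmc, 0.32 for Il2rb, 0.35 for Ifng, -0.08 for Lck and -0.02 for Txk, with standard errors of 0.20 to 0.36 and adjusted p of 0.352 to 0.948 (limma). The 4 irradiated M1 libraries not at odds held 0.121 to 0.725 CPM of Gzmb, and the 5 irradiated M0 libraries not at odds 0.230 to 1.12 CPM. The 2 libraries labelled M2 with high LPS scores held 0.623 and 0.304 CPM. Gzmb was thus low in every irradiated library with a high LPS score.

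In the separate arms, the LPS response called 0 genes (0%) after FLASH and 0 after standard irradiation in limma, with 1543 and 2070 genes at an unadjusted p under 0.05. Without the 5 libraries, 24.8% of genes were called after FLASH and 23.6% after standard irradiation, and none of the 6 in either arm.

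**Figure D2:**
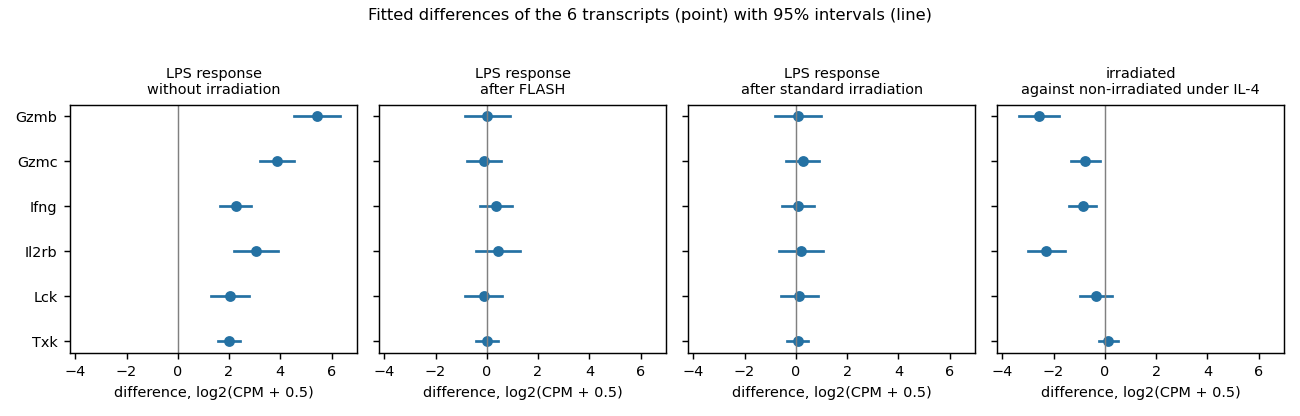
Fitted difference of each transcript on the log2(CPM + 0.5) scale, with its 95% interval, for LPS against M0 without irradiation (the contrast that chose the genes, shown as a description), after FLASH and after standard irradiation, and for irradiated against non-irradiated cultures under IL-4. The intervals after FLASH and after standard irradiation all cover 0, while under IL-4 Gzmb lies at -2.57 and Il2rb at -2.28.

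Set against the irradiated M1 libraries, non-irradiated M1 was higher for all 6 with no overlap. Of all genes, 9.14% were lower in every irradiated M1 library and 3.26% were called lower. Without the 5 libraries, 5.65% were called lower. The libraries that chose the genes are in this contrast, so nothing is read from these counts for the 6. The differences, irradiated minus non-irradiated on the log2(CPM + 0.5) scale, were -5.33 for Gzmb, -3.96 for Gzmc, -4.12 for Il2rb, -2.29 for Ifng, -2.14 for Lck and -2.07 for Txk. Without the 5 libraries they were -5.49, -3.89, -4.07, -2.18, -2.13 and -2.13.

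In IL-4 cultures, which the rule of choice does not name, Gzmb and Il2rb fell with irradiation, 2 of the 6, where 3% of all genes were called and 1.57% were called lower (3.12% without the 5 libraries). Gzmb was 4.15, 14.2 and 2.07 CPM in the non-irradiated M2 libraries and 0.173 to 0.744 CPM in the 6 irradiated ones. The difference was -2.57 on the log2(CPM + 0.5) scale (SE 0.37, adjusted p = 0.000721, limma; -2.58 and 0.00112 without the 5 libraries), and the groups did not overlap, as for 5.81% of genes lower in every irradiated M2 library. Il2rb was 6.76, 9.09 and 2.07 CPM without irradiation and 0.216 to 1.49 CPM with it, again without overlap. Its difference was -2.28 (SE 0.35, adjusted p = 0.00107; -2.37 and 0.00156 without the 5 libraries). Markers of other cells were called lower in the same comparison, 6 of 12 for neutrophils (5 of 12 without the 5 libraries), 3 of 7 for the B lineage (4 of 7), 3 of 7 for mast cells and basophils (2 of 7), 1 of 8 for NK cells (1 of 7) and 0 of 14 for T cells (0 of 12). NK cell marker sums were 17.8 to 34.2 CPM in non-irradiated and 13.2 to 32.9 CPM in irradiated M2. The highest sums, 32.6 CPM after FLASH and 32.9 CPM after standard irradiation, came from the M2 libraries at odds, which had high LPS scores. The other irradiated M2 libraries held 13.2 to 16.5 CPM. The part of these other cells in the result was not tested.

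The other 4 did not pass under IL-4. Ifng had a difference of -0.87 (adjusted p = 0.0667), with 1.59, 0.526 and 0.276 CPM in non-irradiated M2 and 0.0437 to 0.319 CPM in irradiated M2. Gzmc had -0.76 (adjusted p = 0.141), Lck -0.35 (0.584) and Txk 0.13 (0.747), all in limma. The adjusted p without the 5 libraries was 0.0884 for Ifng, 0.102 for Gzmc, 0.582 for Lck and 0.707 for Txk. The spread among the 3 non-irradiated M2 libraries was wide, and the calls depend on the spread borrowed from the other groups: fitted on the M2 groups alone, Gzmb had an adjusted p of 0.121 and Il2rb of 0.126. Without non-irradiated M2 replicate 3, the lowest of its group for Gzmb and Il2rb, 4 of the 6 were called. Of the 17 other granule genes tested, 1 was called, the granzyme Gzma, lower at 0.430 against 4.38 CPM (-2.48, adjusted p = 0.000749, limma). Gzma is also the 1 NK cell marker called lower in this comparison, so it is counted in both lists. In non-irradiated M1 it was 0.584 to 1.816 CPM, below that non-irradiated M2 mean. The median of the 17 was 0.03, against 0 over all genes.

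Against non-irradiated M0, whose libraries also serve the LPS contrast, non-irradiated M2 held 16.0 times as much Gzmb with no overlap. Of all genes 17.9% were higher in every one of these M2 libraries. Il2rb was 3.21 times as high, but M2 replicate 3 at 2.07 CPM lay within the M0 range. Non-irradiated M1 exceeded M2 by 5.70 times for Gzmb, 14.6 times for Gzmc, 3.03 times for Il2rb, 4.06 times for Ifng and 3.99 times for Lck. After irradiation none of the 6 was called for the IL-4 response, where 6.52% of genes were, and none without the 5 libraries, where 26% were. Gzmb then averaged 0.459 CPM in M2 and 0.475 CPM in M0.

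Between FLASH and standard irradiation under LPS, limma called 0 of 13297 genes (0%), with 382 at an unadjusted p under 0.05. For Gzmb, Gzmc and Il2rb all 3 FLASH M1 libraries lay below all 3 standard ones, a pattern shared by 2.77% of genes. The counts behind it were small, 19 against 52 reads for Gzmb, 3 against 16 for Gzmc and 24 against 64 for Il2rb. The differences, FLASH minus standard, were -0.74 for Gzmb (95% interval -1.63 to 0.14), -0.40 for Gzmc (-1.05 to 0.26) and -0.74 for Il2rb (-1.59 to 0.11), with an adjusted p of 1 for each. With the libraries at odds left out, of which 2 are in this comparison, the differences were -0.94, -0.42 and -1, again with an adjusted p of 1, and no gene was called. In control medium Gzmb was 0.119, 0.373 and 0.230 CPM after FLASH and 0.607, 0.401 and 1.12 CPM after standard irradiation, and Il2rb was 0.0395, 0.332 and 0 CPM against 0.840, 0.401 and 0.975 CPM. Both lay in the same order there, with 17 against 46 reads for Gzmb and 9 against 48 for Il2rb, and FLASH M0 replicate 1 is at odds with its label. The share of all genes with that order in M0 was not counted, so nothing is read from it. In M2 the ranges of the irradiation arms overlapped for Gzmb, Gzmc, Il2rb and Ifng. Lck was 0.319 to 0.665 CPM in FLASH M2 and 0.695 to 1.09 CPM in standard M2, without overlap (32 against 67 reads). Txk was 0 in FLASH M2 and 0.174 to 0.416 CPM in standard M2 (19 reads). Replicate 1 of both M2 arms is at odds with its label. No share of all genes was counted for M2, so nothing is read from these orders. The comparisons in M0 and M2 were not tested.

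The partner genes of the 6 were taken list by list. Under LPS without irradiation 17.4% of all genes were called, 9.87% higher and 7.54% lower, and in irradiated against non-irradiated M1 3.26% were called lower (5.65% without the 5 libraries). The list of gamma-chain and IL-12 family cytokines, receptors and STATs had 28 tested genes beside Il2rb. Without irradiation 9 were called higher under LPS and none lower, with a median log2 difference of 1.10 against -0.01 over all genes. The fit without the 5 libraries called 19 higher and 2 lower there, where 18% of all genes were called higher. After irradiation none was called with all libraries, while without the 5 libraries 18 were called higher and 3 lower, where 18.5% of all genes were called higher. The common gamma chain Il2rg, which pairs with the Il2rb product, rose from 104 to 505 CPM without irradiation (2.32, adjusted p = 0.0374). In irradiated cultures without the 5 libraries it rose by 2.55 (adjusted p = 3.64e-09), to 279.7 to 329.4 CPM in M1. Il15ra, which presents IL-15, rose likewise, by 3.11 without irradiation (adjusted p = 0.0143) and by 2.08 after it without the 5 libraries (adjusted p = 1.99e-05). Il23r, the specific IL-23 receptor chain, reached 42.9 CPM from 0.337 CPM without irradiation (5.69, adjusted p = 0.0136), and 19.8 to 29.3 CPM in the 4 irradiated M1 libraries not at odds. The high-affinity IL-2 receptor chain Il2ra was 7.29 against 0.966 CPM without irradiation (2.52, adjusted p = 0.101; 0.00537 without the 5 libraries). Levels under LPS were lower after irradiation for several of them: without the 5 libraries, 11 of the 28 were called lower in irradiated than in non-irradiated M1, against 3 with all libraries, among them Il2rg (-0.72, adjusted p = 0.021) and Il15ra (-1.55, 0.00602). Il2rg was also lower in irradiated M0 not at odds (39.6 to 73.0 CPM) than in non-irradiated M0 (77.4 to 140.1 CPM). In the same 4 irradiated M1 libraries Il2rb was 0.202 to 1.32 CPM.

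Il12rb1, the receptor chain shared by IL-12 and IL-23, had a pattern near that of Gzmc, as noted above. It was 14.0 to 15.4 CPM in non-irradiated M1 and 0.422 to 1.96 CPM in non-irradiated M0 (3.39, adjusted p = 0.00177), and was 1.06 CPM on average in irradiated M1 (-3.49 against non-irradiated, adjusted p = 0.00026). It rose with LPS after irradiation without the 5 libraries (1.49, adjusted p = 0.00068), though to 0.766 to 2.07 CPM only. Stat3 and Stat5b, which signal downstream of such receptors, were the other 2 list genes called lower in irradiated M1 with all libraries, by -0.94 and -0.63 (adjusted p = 0.0397 and 0.043).

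**Figure D3:**
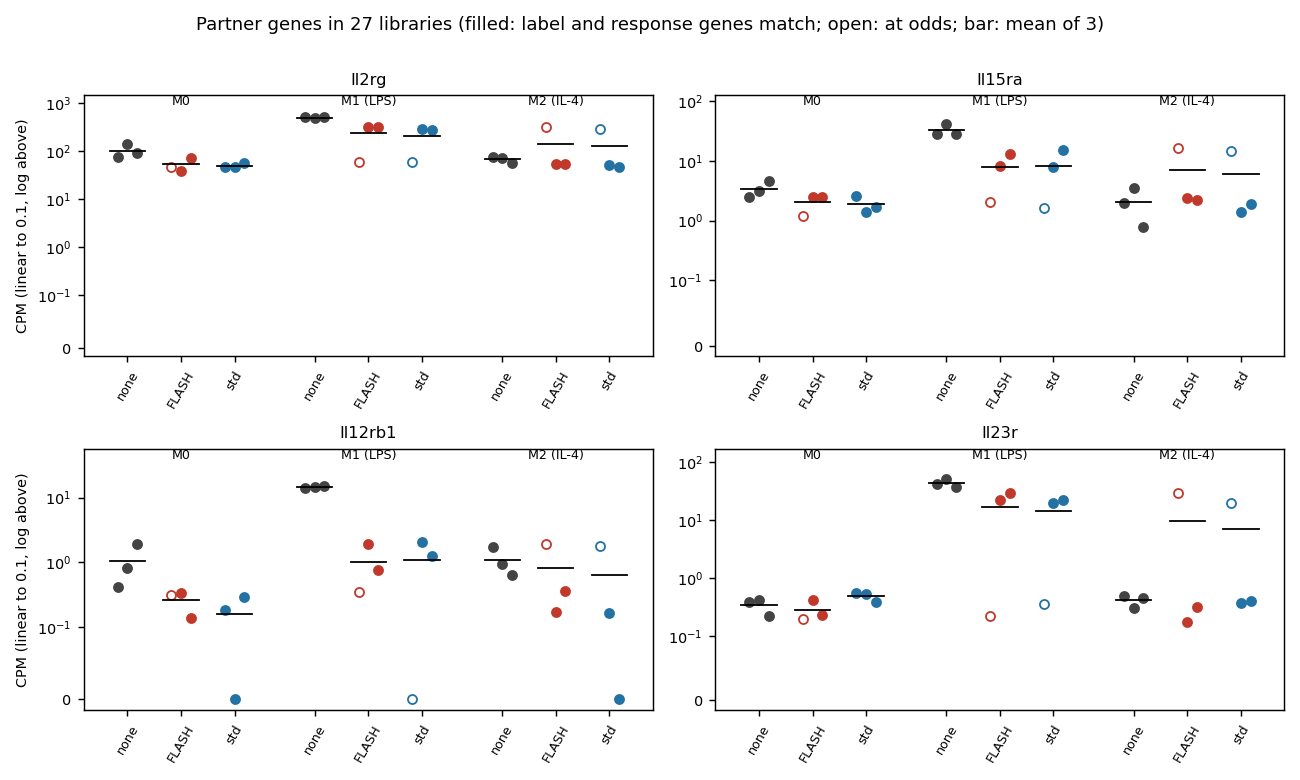
CPM of 4 partner genes in each library, drawn as in the plot of the 6 transcripts (axis linear below 0.1 CPM, logarithmic above; open points are libraries at odds with their labels). In irradiated cultures Il2rg, Il15ra and Il23r are high in the filled M1 points and in the open M2 points, and Il12rb1 stays at or below 2.07 CPM in all irradiated M1 libraries.

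The interferon-gamma receptor pathway and its target genes had 29 tested genes beside Ifng, of which 16 were called higher and 1 lower under LPS without irradiation (median log2 difference 2.51). Many of these also respond to type I interferon. Cxcl11, a chemokine for activated T cells, rose from 0.167 to 26.4 CPM (5.34, adjusted p = 0.00316) and Nos2, the inducible nitric oxide synthase, from 2.20 to 123 CPM (5.40, adjusted p = 0.0098). Ciita, the switch of MHC class II genes, fell from 41.4 to 6.09 CPM (-2.50, adjusted p = 0.0145). After irradiation and without the 5 libraries, 23 of the 29 were called higher and 2 lower, against 18.5% of all genes higher. The same fit called 23 higher and 1 lower without irradiation, against 18% of all genes higher. The 4 irradiated M1 libraries in that fit held 0.121 to 0.484 CPM of Ifng. Irradiated M1 was called lower than non-irradiated M1 for 3 of the 29: Cxcl11 (-3.42, adjusted p = 0.0287), Irf1 (-2.17, 0.00861) and Irf8 (-0.87, 0.0233), and for 11 without the 5 libraries. The receptor chains Ifngr1 and Ifngr2 were not called in that comparison (-0.25 and -0.10, adjusted p = 0.256 and 0.713).

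Of 24 tested Src and Tec family kinases and adaptors beside Lck and Txk, 4 were called higher and 1 lower under LPS without irradiation. With all libraries, that share was near the 17.4% of all genes. Without the 5 libraries, 11 of 23 were called higher and 4 lower, where 18% of all genes were called higher and 16.9% lower. Among the 4 called higher with all libraries were the T cell receptor kinase Zap70 (1.20 against 0.172 CPM, 1.38, adjusted p = 0.018) and Sh2d2a, an adaptor that binds Lck (2.00 against 0.495 CPM, 1.35, 0.00225). Sh2d2a was lower in irradiated M1 (-1.88, adjusted p = 9.47e-06). Lyn, a Src-family kinase of myeloid cells, was 542 against 317 CPM (0.80, adjusted p = 0.236, limma with all libraries) under LPS without irradiation. Its ranges there, 506.7 to 573.4 CPM in M1 and 264.3 to 405.7 CPM in M0, did not overlap, as for 22.8% of genes higher in every such M1 library. In the fit without the 5 libraries Lyn rose with LPS after irradiation by 1.03 (adjusted p = 6.19e-07). It was not called between irradiated and non-irradiated M1 (-0.35, adjusted p = 0.66, with all libraries; 0.08 and 0.726 without the 5).

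On the list of granzymes and cytotoxic granule genes, 17 were tested beside Gzmb and Gzmc. Under LPS without irradiation 4 were called higher and none lower (median 0.42), among them Ctsw, a cathepsin of killer cells (2.65 against 0.251 CPM, 2.13, adjusted p = 0.00164), Tnfsf10, which encodes the death ligand TRAIL (29.4 against 4.35 CPM, 2.73, 0.0234), and Serpinb9, the intracellular inhibitor of granzyme B (68.4 against 24.9 CPM, 1.46, 0.00313). In irradiated M1 3 of the 17 (also 3 without the 5 libraries) were called lower: Ctsw, Tnfsf10 and Nkg7, a killer cell granule membrane gene (-2.15, -2.45 and -2.35, adjusted p = 0.000281, 0.0422 and 0.00166). Serpinb9 was not (-0.44, adjusted p = 0.328), and without the 5 libraries it rose with LPS after irradiation by 0.89 (adjusted p = 0.00108). Srgn, the proteoglycan that packs granzymes, was 121 against 116 CPM under LPS without irradiation (0.13, adjusted p = 0.817). Prf1, which encodes perforin, the pore that lets granzymes enter, was 0, 0 and 0.279 CPM at the lowest, median and highest in non-irradiated M1. Prf1 was thus at or near 0 in the libraries where Gzmb and Gzmc were highest.

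Some lymphocyte markers were called in the same comparisons. The 22 NK cell markers in the table summed to 46.4 to 58.3 CPM in non-irradiated M1, 19.0 to 30.5 CPM in non-irradiated M0 and 12.8 to 36.2 CPM in irradiated M1. Of 8 tested, 2 were called higher under LPS without irradiation, Klrk1 (NKG2D, 21.3 against 2.96 CPM, 3.13, adjusted p = 0.0475) and the T-box factor Tbx21 (1.08 against 0.172 CPM, 1.24, 0.00273), and 2 lower in irradiated M1, Tbx21 and Nkg7 (4 of 7 without the 5 libraries). The NK receptor genes were rare apart from Klrk1, and several were higher by their medians in non-irradiated M1 than in M0: Ncr1 (0.559 against 0.224 CPM), Klrd1 (1.40 against 0.345 CPM), Klrc1 (0.885 against 0.0435 CPM) and the cytokine gene Xcl1 (1.35 against 0.224 CPM). For Ncr1, Klrd1 and Klrc1 the M1 and M0 ranges overlapped. The median of Ncr1 in the 4 irradiated M1 libraries not at odds was 0.0207 CPM. Klrb1c went the other way, at 0 to 0.0466 CPM in non-irradiated M1 and 0.0384 to 0.708 CPM in M0. The 23 T cell markers summed to 124 to 142 CPM in non-irradiated M1, 148 to 278 CPM in M0 and 53.1 to 157 CPM in irradiated M1, and Cd4 alone was 73.3 to 101 CPM in non-irradiated M1. Of 14 tested, 5 were called higher and 1 lower under LPS without irradiation, and 7 lower in irradiated M1 (7 of 12 without the 5 libraries). The sum of the list was lower in non-irradiated M1 than in M0, where Cd28 alone was 84.95 to 109.8 CPM against 7.09 to 12.94 CPM in M1. Of the 23 genes, 14 averaged at least 1 CPM in non-irradiated M1 and 7 in non-irradiated M0. Trbc2, a T cell receptor beta constant segment, was 1.91 against 0.320 CPM (1.59, adjusted p = 0.00164) and was lower in irradiated M1 (-1.93, 2.44e-05). Cd3g was 1.30 to 2.16 CPM, Cd3e 0.233 to 1.27 CPM and Trac 0 to 0.255 CPM in non-irradiated M1. The part of NK or T cells in the levels of the 6 transcripts was not tested.

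Markers of other cells were called lower with irradiation too. These counts without the 5 libraries were 3 of 7 for mast cells and basophils, 4 of 9 for plasmacytoid dendritic cells, 6 of 7 for the B lineage, 8 of 12 for neutrophils, 0 of 8 for innate lymphoid cells, 1 of 10 for conventional dendritic cells and 3 of 12 for macrophages. With all libraries, mast cell and basophil markers (13 genes) summed to 24.02 to 33.2 CPM in non-irradiated M1 and 3.15 to 11.9 CPM in irradiated M1, with 3 of 7 tested called lower, among them the basophil proteases Prss34 (-3.93, adjusted p = 0.000166) and Mcpt8 (-1.99, 0.000753). Of 9 plasmacytoid dendritic cell markers 4 were called lower in irradiated M1, including Siglech (-2.27, 6.22e-05) and Ccr9 (-2.80, 2.23e-05). Of the B lineage markers tested, 5 of 7 were called lower, with Cd79a at 5.39 against 0.158 CPM (-3.17, 3.76e-08), and so were 8 of 12 neutrophil markers. B lineage sums were 8.68 to 23.8 CPM in irradiated M0 and 8.23 to 23.7 CPM in irradiated M1, against 102 to 121 CPM in non-irradiated M1 and 118 to 149 CPM in non-irradiated M0. Neutrophil sums were highest in non-irradiated M0 (597 to 1025 CPM), where the 6 transcripts were low. Innate lymphoid and conventional dendritic cell lists each had 1 gene called lower in irradiated M1. Macrophage markers stayed abundant in all groups, with 1 of 12 (C1qa) called lower in irradiated M1 and Csf1r not called (-0.29, adjusted p = 0.42). The part of these cells in the results was not tested.

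**Figure D4:**
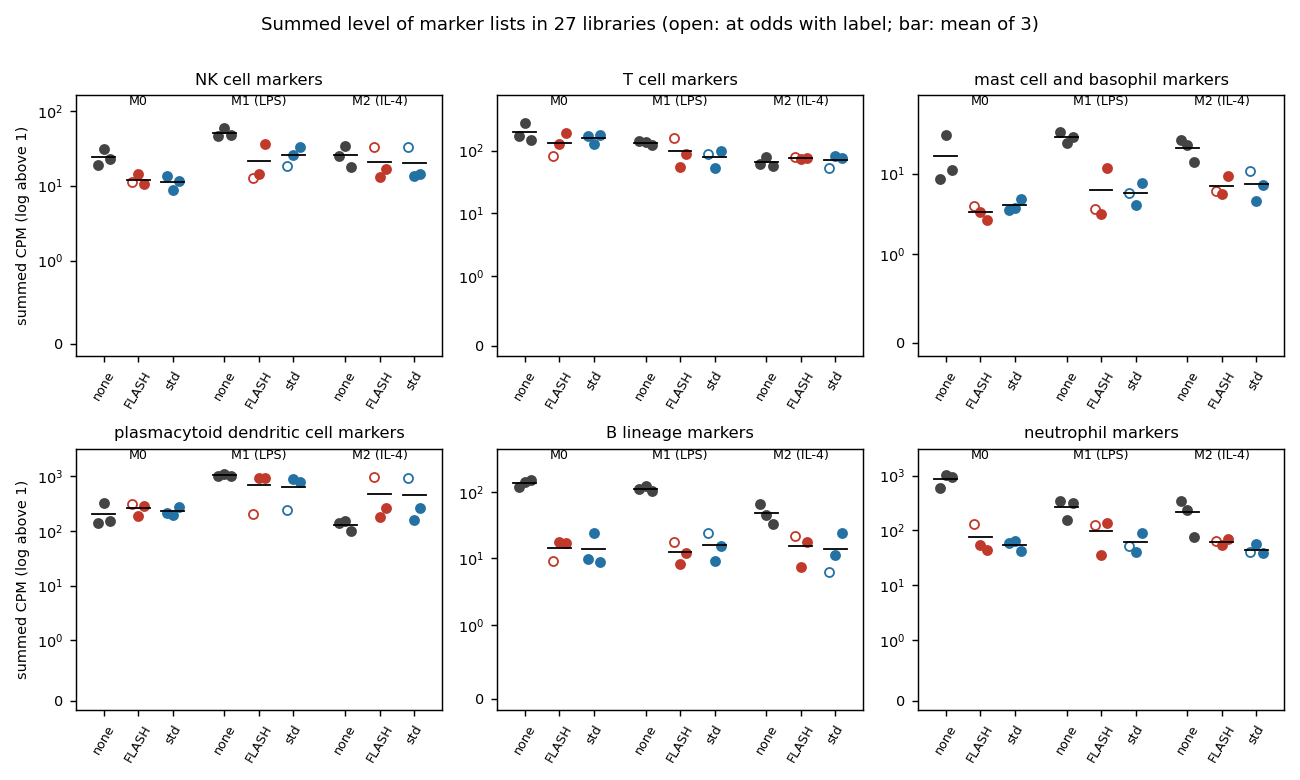
Summed CPM of 6 marker lists in each library, with bars for the mean of 3 and open points for libraries at odds with their labels; the axis is logarithmic above 1 CPM. NK cell marker sums are highest in non-irradiated M1 (46.4 to 58.3 CPM), where Klrk1 alone holds 16.1 to 28.1 CPM. B lineage sums are high in all non-irradiated M0 and M1 libraries.

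The genes most like each transcript over the 27 libraries were named by Pearson's r of log2(CPM + 0.5), as a description in which the 3 non-irradiated M1 libraries carry most of the spread. Trbc2 (r = 0.92) and Sh2d2a (0.90) came first for Gzmb, Tbx21 (0.93) and the serpin Serpina3b (0.91) for Gzmc, and Sh2d2a (0.95) and Trbc2 (0.92) for Il2rb. Serpina3b came first for Ifng (0.92) and Txk (0.89), and Tbx21 for Lck (0.91). The list for Il2rb also held the basophil genes Mcpt8 and Prss34 (0.90 each), and that for Ifng held Gata1 (0.87). Most of these were rare: Trbc2, Sh2d2a, Tbx21 and Serpina3b averaged 1.91, 2.00, 1.08 and 2.56 CPM in non-irradiated M1. Ranked by Spearman's rho, 7 of the 30 places were kept. Among the 6 transcripts themselves, r ran from 0.71 (Ifng with Lck) to 0.94 (Gzmb with Il2rb) and rho from 0.03 to 0.84.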

How the data were processed

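RNA of 27 mouse macrophage libraries was sequenced. Per the submitters' processing notes, the authors used kallisto 0.46.1, edgeR 3.36.0 and R 4.0.5; the build those notes name, GRCh38, is a human one, and no coordinates were taken from it. The deposited table holds, per gene and library, a signal made by the authors, TMM-scaled CPM, not raw counts, so count tests were not used. One of its entries had no symbol. A gene entered the tests when 3 or more libraries reached 1 CPM (13297 of 19069). Values of log2(CPM + 0.5) were modelled with limma 3.58.1 under R 4.3.3 and statmod 1.5.0, on all 27 libraries, using 9 group means, a variance trend and robust moderation; p-values were adjusted by Benjamini-Hochberg within each comparison and called below 0.05. Fold changes on that scale understate changes of low genes. The smallest step between values gave the reads per library; 88.66% to 98.17% of values were whole within 0.01 read, and no libraries were identical.

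Groups came from the labels. A library was called at odds with its label when a response score above 0.5 belonged to another treatment, or when the score of its own treatment missed 0.5. Each score used the 200 genes with the largest differences, without overlap, between non-irradiated M1 or M2 and non-irradiated M0. These genes averaged 5 CPM or more in the higher group. The 6 genes and all 13 gene lists were chosen with earlier results of these data known. From each list up to 3 called genes per direction with the largest change were named, or the one with the smallest p, plus a fixed set of receptors, kinases and markers and the 5 genes most like each transcript; those named for levels or neighbours alone were chosen after their values were seen. Older symbols were matched through RefSeq synonyms. Promoters came from RefSeq (GRCm38.p6). The scripts were tested on simulated data. Alternatives were other pseudocounts (0.1 and 1), no filter, a filter of 5 CPM, median-of-ratios scaling, no trend, only the groups compared, a replicate block and leaving out each library; leaving out the 5 libraries at odds was added after seeing the data. Results for some named genes are not reported here.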

Additional observations from a re-analysis of the deposited data

How the results depend on the processing

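No member was called for the LPS response after irradiation, for either arm, for FLASH against standard or for the IL-4 response after irradiation under any alternative run. Only small differences turned sign: without the 5 libraries, chosen after seeing the data, the LPS response after irradiation was -0.17 for Gzmb, -0.08 for Lck and -0.02 for Txk, and leaving out single libraries moved it between -0.08 and 0.17 for Gzmb, -0.03 and 0.15 for Gzmc, -0.15 and 0.15 for Lck and -0.02 and 0.06 for Txk. Under IL-4, Lck ranged from -0.62 to 0.05 over the single libraries, and Ifng was called without a variance trend (adjusted p = 0.0487). Members called under IL-4 were 2, but 0 when only the M2 groups were fitted and 2 to 4 with single libraries left out (4 without non-irradiated M2 replicate 3); the cause was not tested.

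Counts of genes called moved more, and the cause was not tested. The LPS response without irradiation called 2315 genes, 3932 with only the groups compared and 4607 without the 5 libraries, and 902 to 1996 with a library left out. After FLASH it called 0, 3272 without the 5 and 0 to 504 with a library left out (504 without FLASH M1 replicate 1). After standard irradiation it called 0, 51 with only the groups compared and 3108 without the 5. The mean of both arms called 147, 57 with no filter, 225 with the 5 CPM filter, 0 with only the groups compared, 4899 without the 5, and 0 to 2751 with a library left out (2751 without FLASH M1 replicate 1, 1978 without standard M1 replicate 1, 698 without FLASH M0 replicate 1, and 0 to 5 without any of the other 9). Irradiated against non-irradiated cultures under LPS called 692, 210 with only the groups compared, 1306 without the 5, and 203 to 686 with a library left out. Under IL-4 that count was 399, then 14, 923, and 130 to 545. The IL-4 response after irradiation called 867, then 491, 3425, and 234 to 1322.

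Libraries of one replicate number share a code in their titles, whose meaning the labels do not give. No pairing showed in the values: 9 of 108 pairs with equal numbers correlated above 0.1 (median -0.1), and 2 of 27 libraries correlated best with their own number. The 5 libraries at odds, all of one code, are part of that check, and it was not repeated without them. It therefore cannot show that pairing is absent. With a replicate block the counts were 0 for the LPS response after irradiation, 427 and 226 for irradiated against non-irradiated under LPS and IL-4, and 453 for the IL-4 response; members called under IL-4 stayed at 2. Median-of-ratios scaling moved the median gene by at most 0.013 in size. Leaving out a non-irradiated M1 library, or a filter of 5 CPM, removed Txk from the genes tested, and the 5 CPM filter also removed Ifng and Lck. Below about 0.5 CPM, some 10 to 13 reads per library, changes of the 6 are poorly resolved.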
